A study of Mus musculus with 12 samples.

Results

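The miR-17-92 cluster is a group of microRNAs cut from a single primary transcript, Mir17hg. Its members were chosen by name and were 8 of the 576 entries on the array, all of them strands made from that transcript: mmu-miR-17_v17.0 (the version-tagged name of the 5p arm of miR-17), mmu-miR-17-3p, mmu-miR-18a-5p, mmu-miR-19a-3p, mmu-miR-20a-5p, mmu-miR-20a-3p, mmu-miR-19b-3p and mmu-miR-92a-3p, written below without the species prefix. They were measured in LLC1 cells, a mouse Lewis lung carcinoma line kept in culture. Cells had received 2 Gy at once, 10 Gy at once, or 10 Gy as 5 fractions of 2 Gy (5x2 Gy), and control cells were untreated. RNA was isolated 4 h after the irradiation. Each group had 3 arrays, which the labels call biological replicates without naming a culture or day, so p-values measure the spread among these samples. A single line stands for the tumour. Of 6 epithelial marker miRNAs (the miR-200 family, miR-141-3p and miR-205-5p) 0 were detected on any array. Of 5 fibroblast and mesenchymal markers 4 were detected, 3 of them on all 12 arrays and miR-143-3p on 7. Of 6 blood cell markers, miR-142a-3p was detected on 12 arrays, miR-142a-5p on 6 and the rest on none. Of 3 muscle markers, only miR-206-3p was detected, on 2 arrays.

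Mir17hg, also called oncomiR-1, is best known for promoting proliferation and survival and is often raised in lung and lymphoid tumours. Drosha cuts the primary transcript into hairpins, and Dicer then releases a 5p and a 3p arm from each, of which mostly 1 stays in the silencing complex. Bases 2 to 8 of the mature strand, the seed, select the targets: the miR-17 seed is known for repressing the cell cycle inhibitor p21 and the E2F factors, and the miR-17 and miR-92 seeds for repressing the pro-apoptotic protein Bim.

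The 6 hairpins lie within 836 bases of chromosome 14, chr14:115043671-115044506 on the plus strand of GRCm38.p6 in RefSeq, with gaps of 35 to 96 bases. All 8 members matched a RefSeq mature sequence by name. The mature strands are shown because members that share a seed are set side by side below. They are given 5′ to 3′ in the order of the transcript, with the seed in capitals.
miR-17_v17.0: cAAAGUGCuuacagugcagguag
miR-17-3p: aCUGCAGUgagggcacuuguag
miR-18a-5p: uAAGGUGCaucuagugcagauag
miR-19a-3p: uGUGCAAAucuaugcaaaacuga
miR-20a-5p: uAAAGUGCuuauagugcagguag
miR-20a-3p: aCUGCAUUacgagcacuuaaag
miR-19b-3p: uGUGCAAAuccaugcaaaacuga
miR-92a-3p: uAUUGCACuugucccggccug
The 8 strands carry 6 seeds. MiR-17 and miR-20a-5p share AAAGUGC, and differ at C1U and C12U, counted from the 5′ end with the miR-17 base first. MiR-19a-3p and miR-19b-3p share GUGCAAA and differ only at U11C. MiR-18a-5p (AAGGUGC) is close to the miR-17 seed, and miR-92a-3p (AUUGCAC) belongs to another family. The mature miR-19b-3p and miR-92a-3p are also made from a second hairpin each, Mir19b-2 and Mir92-2, which RefSeq places elsewhere. These arrays cannot tell the 2 sources of either strand apart.

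Both arms are members for 2 hairpins, Mir17 and Mir20a. They are shown with the mature arms in capitals, the 5p arm first.
Mir17: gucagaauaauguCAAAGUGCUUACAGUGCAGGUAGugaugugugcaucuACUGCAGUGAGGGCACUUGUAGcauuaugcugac
Mir20a: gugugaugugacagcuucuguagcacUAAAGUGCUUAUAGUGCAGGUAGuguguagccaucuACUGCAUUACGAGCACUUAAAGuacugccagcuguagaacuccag

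Levels are log2 of the processed spot signal relative to the array's 75th percentile, taken over the 78 probes detected on all arrays, and that percentile before scaling is called array brightness. A probe counted as detected when a share of more than 0.5 of its spots stood well above background. Brightness ran from 110.5 (control replicate 2) to 1102 (5x2 Gy replicate 2), and 48 to 137 entries were detected per array. The 5x2 Gy arrays (1004 to 1102) were all brighter than the control arrays (110.5 to 703). Slide 1 held all 2 Gy and control arrays with 10 Gy replicates 1 and 2, and slide 2 held the 5x2 Gy arrays with 10 Gy replicate 3. Testing required detection on every array of 1 group or more, which left 118 of 576 entries.

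Of the members, 7 of 8 were tested and 5 were detected on all 12 arrays: miR-18a-5p, miR-19a-3p, miR-20a-5p, miR-19b-3p and miR-92a-3p. MiR-17-3p was detected on 11 arrays, all but control replicate 2. MiR-17_v17.0 was detected on 9, all but 2 Gy replicate 1, 10 Gy replicate 2 and control replicate 2. MiR-20a-3p was detected on 1 array (5x2 Gy replicate 2) by 1 of its 4 probes and lay at or near the floor of -5.79 on all 12, so it was not tested and no change is given for it. Each tested member rests on 2 probes of 10 spots, and both enter its level, also on arrays where 1 of them was not detected. The probes of miR-17-3p were detected on 6 and 11 arrays, those of miR-17_v17.0 on 8 and 9, and those of miR-18a-5p on 11 and 12. After centring, the 2 probes of a member differed by a root mean square of 0.04 (miR-20a-5p) to 0.19 (miR-92a-3p) over the arrays, on the log2 scale.

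No tested member passed the test in any comparison. Limma with Benjamini-Hochberg adjustment over all 118 miRNAs called 0 of 7 members after 2 Gy, where it called 0 of 118 in all (0%). After 10 Gy it called 0 of 7, against 1 of 118 (0.847%). After 5x2 Gy it called 0 of 7, against 25 of 118 (21.2%), of which 22 were higher than in control. In 5x2 Gy minus 10 Gy it called 0 of 7, against 5 of 118 (4.24%), all 5 higher after 5x2 Gy. An F test over the 4 groups called 0 of 7, against 12 of 118 (10.2%). At an unadjusted p under 0.05, 1 member was lower after 2 Gy, 3 after 10 Gy and 1 with 5x2 Gy, where 3.39%, 9.32% and 5.08% of all 118 were lower. Each array measured a whole culture, so fewer cells carrying a miRNA and less of it per cell cannot be told apart.

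The differences, though not called, were mostly negative against control. After 2 Gy all 7 tested members had a negative difference, where 39.8% of the 118 did. After 10 Gy the figures were 7 of 7 and 44.1%, and after 5x2 Gy 6 of 7 and 30.5%. The members' median was -0.19 after 2 Gy against 0.03 for the 118, -0.39 after 10 Gy against 0.05, and -0.12 after 5x2 Gy against 0.21. In 5x2 Gy minus 10 Gy it was 0.23 against 0.16, with 1 of 7 negative against 28%. These 7 strands share a transcript and, in part, a seed, so they are not 7 separate observations, and the comparisons with control share its 3 arrays.

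The signs are relative to the other detected miRNAs on an array and depended on the scaling. Without scaling, the median shift over the 101 tested miRNAs above the floor on all arrays was 0.48 after 2 Gy, 0.53 after 10 Gy and 1.66 with 5x2 Gy, and members then turned positive in 7, 6 and 6 of their comparisons with control. The authors' deposited log2 values shifted the medians by 0.40, 0.50 and 1.46 and turned 7, 7 and 6. Scaling over all probes shifted them by 0.17, 0.49 and 1.63 and turned 3, 7 and 6. It called all 7 tested members higher after 5x2 Gy, where it called 105 of 118 miRNAs. Without scaling miR-17-3p, miR-20a-5p and miR-92a-3p were called higher after 5x2 Gy, where 93 of 118 were called. Quantile normalization turned miR-17_v17.0 after 2 Gy (0.25) and 10 Gy (0.19) and miR-17-3p after 2 Gy (0.086). The total gene signal turned the same changes (1.49, 1.13 and 0.23).

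**Figure D1:**
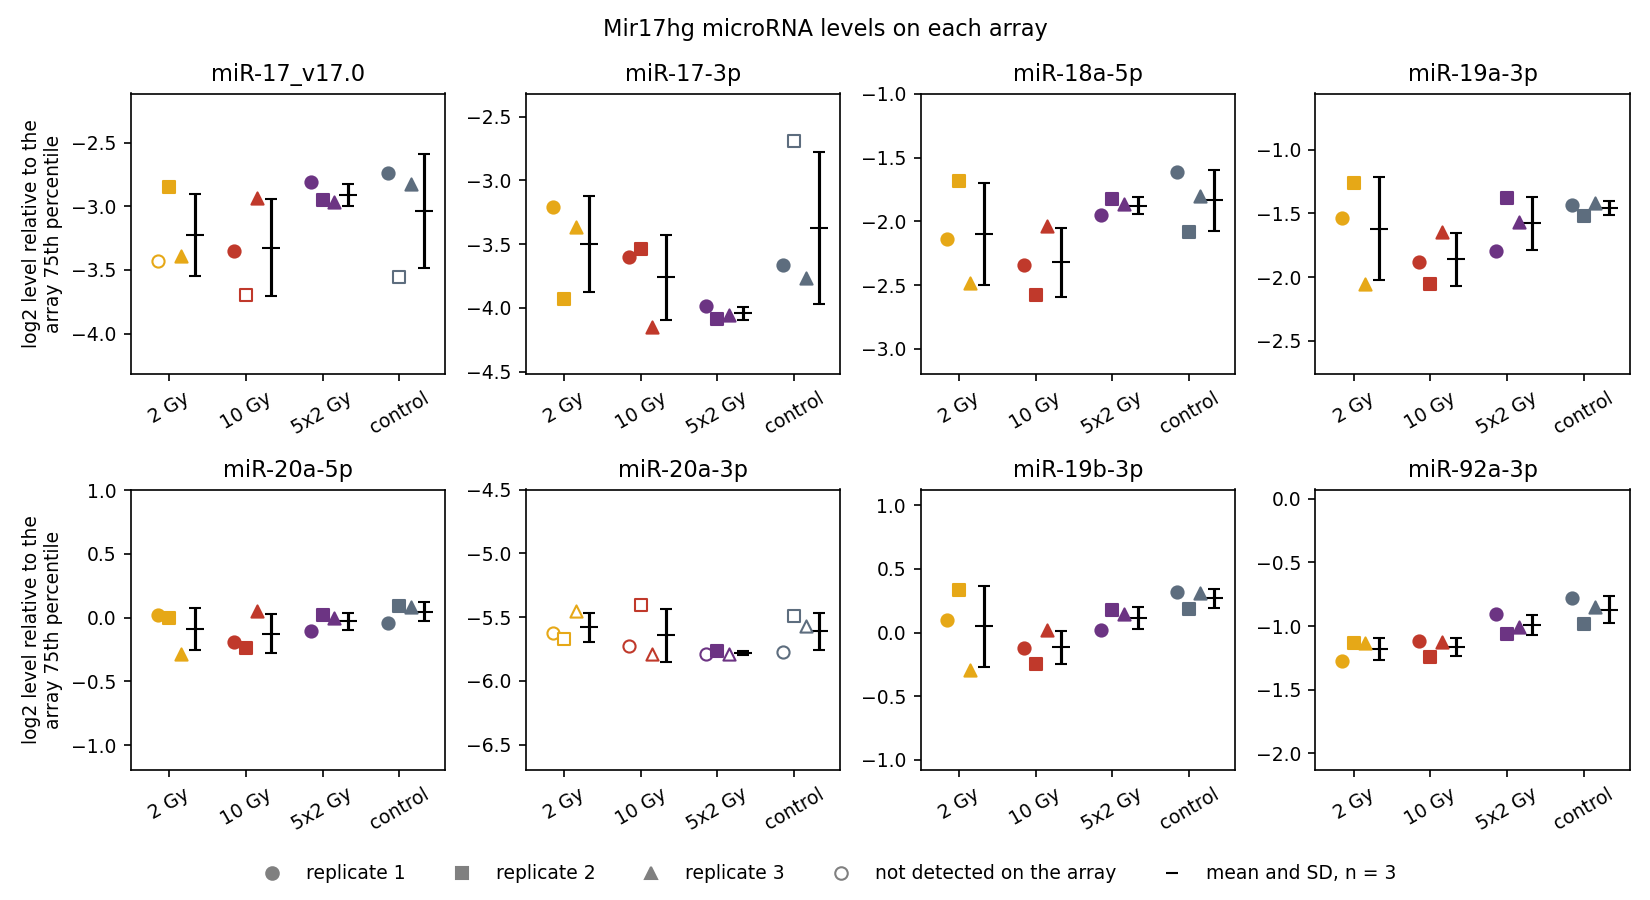
Log2 level of the 8 members on each of the 12 arrays, relative to the array's 75th percentile. Symbols give the replicate, open symbols arrays where the member was not detected, and bars the mean and SD of 3 arrays. All panels span 2.2 log2 units. MiR-20a-5p and miR-92a-3p vary least, the 2 arms of miR-17 vary most, and miR-20a-3p stays at or near the floor of -5.79.

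In the miR-17 seed group, miR-20a-5p, the better measured of the pair, was at 0.02, -0.0019 and -0.28 after 2 Gy, at -0.19, -0.24 and 0.05 after 10 Gy, at -0.10, 0.02 and -0.01 after 5x2 Gy, and at -0.04, 0.09 and 0.09 in control. All 4 groups overlapped, and the whole range was 0.37. Its change was -0.14 after 2 Gy (95% interval -0.39 to 0.12), -0.17 after 10 Gy (-0.43 to 0.09) and -0.08 with 5x2 Gy (-0.34 to 0.18). Under this scaling, the intervals leave room for a fall of up to 0.43 on the log2 scale after 10 Gy. They leave room for a rise of no more than 0.18 in any of the 3 comparisons. Without scaling, miR-20a-5p changed by 1.75 after 5x2 Gy. With its sister strand miR-17_v17.0 the precision was lower.

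MiR-17_v17.0 was at -3.43, -2.85 and -3.39 after 2 Gy, at -3.35, -3.69 and -2.93 after 10 Gy, at -2.81, -2.95 and -2.97 after 5x2 Gy, and at -2.74, -3.56 and -2.82 in control. The lowest array of each group other than 5x2 Gy was one where it was not detected, and the 5x2 Gy arrays lay within the control range. Its change was -0.19 after 2 Gy (SE 0.26), -0.29 after 10 Gy and 0.13 with 5x2 Gy, with limma adjusted p of 0.799, 0.505 and 0.772. Without control replicate 2, where it was not detected, these were -0.44, -0.55 and -0.13, so the sign after 5x2 Gy rests on that array.

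MiR-18a-5p, whose maturation is known to be helped by the RNA-binding protein hnRNP A1, was at -2.14, -1.68 and -2.48 after 2 Gy, at -2.34, -2.58 and -2.04 after 10 Gy, at -1.95, -1.82 and -1.86 after 5x2 Gy, and at -1.61, -2.09 and -1.80 in control. The lowest level was on 10 Gy replicate 2. Only 10 Gy replicate 3, the one on slide 2, overlapped with control. Its change after 10 Gy was -0.49 (95% interval -0.95 to -0.02, limma adjusted p = 0.203), the most negative of the members. It was -0.27 after 2 Gy (limma adjusted p = 0.712) and -0.04 after 5x2 Gy (limma adjusted p = 0.905). In 5x2 Gy minus 10 Gy it was 0.44 (limma adjusted p = 0.272), with all 5x2 Gy arrays above all 10 Gy arrays. Such a higher, non-overlapping split was seen in 34.7% of the 118 miRNAs, and within slide 2 the difference was 0.16 (1 array of 10 Gy).

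The miR-19 strands carry the seed known as the main oncogenic part of the cluster in mouse B-cell lymphoma. MiR-19a-3p was at -1.54, -1.26 and -2.06 after 2 Gy, at -1.88, -2.05 and -1.65 after 10 Gy, at -1.79, -1.38 and -1.57 after 5x2 Gy, and at -1.44, -1.52 and -1.42 in control. MiR-19b-3p was at 0.10, 0.34 and -0.29 after 2 Gy, at -0.12, -0.25 and 0.02 after 10 Gy, at 0.02, 0.18 and 0.15 after 5x2 Gy, and at 0.32, 0.18 and 0.31 in control. For both strands all 10 Gy arrays lay below all control arrays, and the 2 Gy arrays spread on both sides of control. After 10 Gy miR-19a-3p changed by -0.40 (95% interval -0.84 to 0.03, limma adjusted p = 0.252) and miR-19b-3p by -0.39 (-0.72 to -0.05, limma adjusted p = 0.194). MiR-19b-3p was also below control on all 5x2 Gy arrays, by the narrowest of margins, with a change of -0.15 (limma adjusted p = 0.483).

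MiR-92a-3p, the last strand on the transcript and a known inhibitor of blood vessel growth, had the smallest spread between replicates of the 7 tested members (pooled SD 0.09). It was at -1.28, -1.14 and -1.13 after 2 Gy, at -1.11, -1.24 and -1.13 after 10 Gy, at -0.90, -1.07 and -1.01 after 5x2 Gy, and at -0.78, -0.99 and -0.85 in control. All 2 Gy and all 10 Gy arrays lay below all control arrays, while 5x2 Gy overlapped with control. Its change was -0.31 after 2 Gy (95% interval -0.52 to -0.09, 0.807-fold, limma adjusted p = 0.278) and -0.29 after 10 Gy (-0.50 to -0.07, 0.818-fold, limma adjusted p = 0.194). After 5x2 Gy it was -0.12 (-0.33 to 0.10, limma adjusted p = 0.379). Its 2 probes, which differed most among the members, gave -0.34 and -0.27 after 2 Gy, and -0.39 and -0.19 after 10 Gy. The limma F test over the 4 groups gave an adjusted p of 0.128, the lowest of the members, for the others of which it ran from 0.301 to 0.637.

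Members below control without overlap numbered 1 of 7 after 2 Gy (miR-92a-3p), where 2.54% of the 118 were. After 10 Gy they numbered 3 of 7 (miR-19a-3p, miR-19b-3p and miR-92a-3p), against 5.93%. After 5x2 Gy they numbered 2 of 7 (miR-19b-3p and miR-17-3p), against 5.08%. By group mean, miR-18a-5p, miR-19a-3p, miR-19b-3p and miR-20a-5p had 1 order: control highest, then 5x2 Gy, 2 Gy and 10 Gy. MiR-92a-3p had 2 Gy lowest, just under 10 Gy. None of the neighbours in these orders that were tested passed the adjusted limma test, and 2 Gy was not tested against 10 Gy or 5x2 Gy. MiR-19b-3p after 5x2 Gy lay below control without overlap, as counted above. All 5x2 Gy arrays of miR-92a-3p lay above all 10 Gy arrays (change 0.17, limma adjusted p = 0.328), which with miR-18a-5p makes 2 of 7 members, against 34.7% of the 118. In 5x2 Gy minus 10 Gy the differences of the other tested members were 0.42 (miR-17_v17.0), -0.28 (miR-17-3p), 0.28 (miR-19a-3p), 0.23 (miR-19b-3p) and 0.097 (miR-20a-5p), with overlapping groups and limma adjusted p of 0.388 to 0.651.

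**Figure D2:**
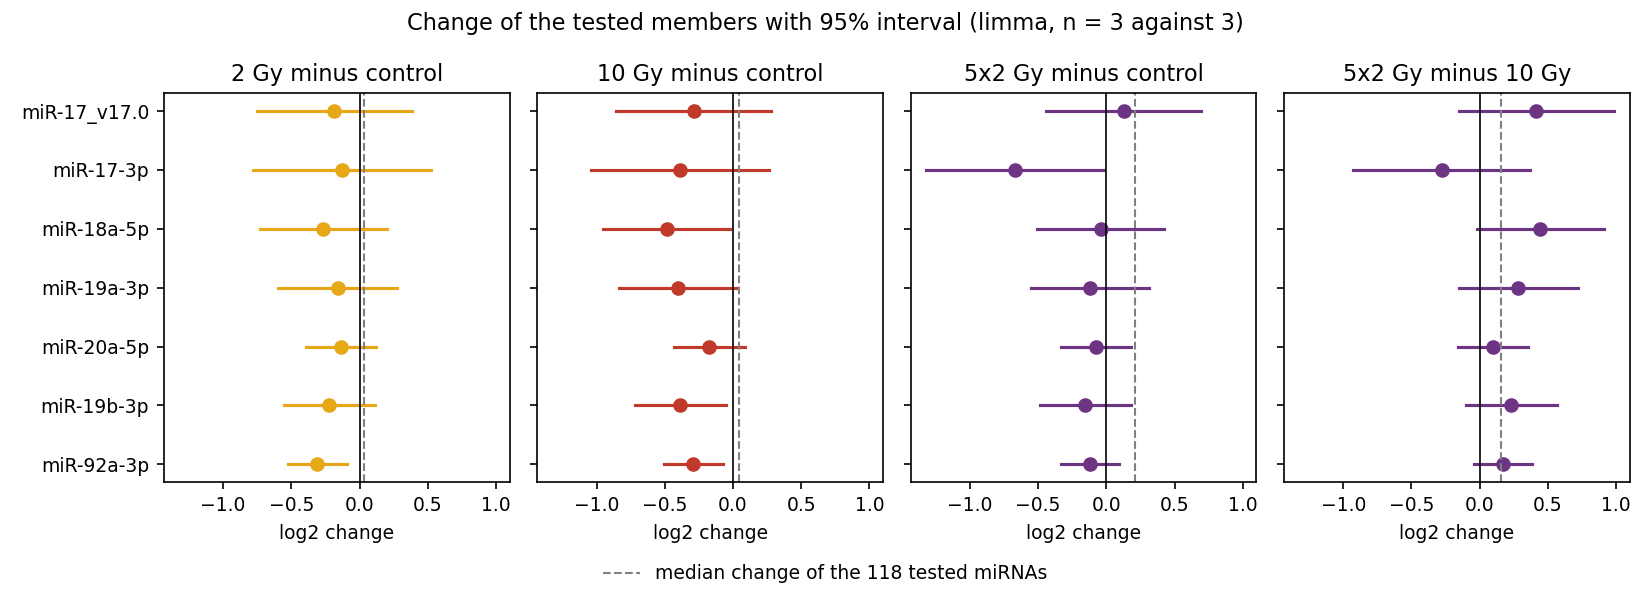
Change of the 7 tested members in each comparison, with the 95% interval from limma (3 arrays against 3), and the median change of the 118 tested miRNAs as a dashed line. After 10 Gy all 7 points lie between -0.49 and -0.17, and none of the changes passed the adjusted threshold.

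The 2 arms of miR-17 varied most between arrays of a group, and in opposite ways. MiR-17-3p was at -3.21, -3.93 and -3.36 after 2 Gy, at -3.60, -3.54 and -4.15 after 10 Gy, at -3.98, -4.08 and -4.05 after 5x2 Gy, and at -3.66, -2.69 and -3.77 in control. All 5x2 Gy arrays lay below all control arrays (change -0.67, 95% interval -1.32 to -0.02, limma adjusted p = 0.127), and the highest level was on control replicate 2, where the strand was not detected. Without that array the change was -0.33. Its unscaled signal stayed between 19.1 and 72.5 over all 12 arrays, while that of miR-20a-5p ran from 121 to 1148.

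The level of miR-17-3p went down with array brightness over the 12 arrays (r = -0.95, rho = -0.90, permutation p = 3e-05 and 0.00025, adjusted 0.0002 and 0.001 over 8 relations). That of miR-17_v17.0 went up (r = 0.75, rho = 0.64, permutation p = 0.00553 and 0.0269, adjusted 0.0147 and 0.0717). Brightness is also the divisor of each level, so a strand with a steady unscaled signal goes down with it by construction. The permutation p-values for single strands do not take this coupling out. In the difference between the arms the scaling cancels, but the steady unscaled signal of miR-17-3p remains. Any strand whose signal follows brightness rises against it, so the p-values for this difference carry no conclusion about the arms. The difference between the arms on an array, miR-17_v17.0 minus miR-17-3p, ran from -0.87 on the dimmest array to 1.22 (r = 0.92, rho = 0.91, permutation p = 5e-05 and 0.00015, adjusted 0.0002 and 0.001). Leaving out control replicate 2 and 5x2 Gy replicate 2, which lay farthest from the median in brightness, the 3 measures gave r of -0.90, 0.71 and 0.87. On the 8 slide 1 arrays alone r was -0.93 (exact permutation p = 0.000496), 0.67 (exact permutation p = 0.0549) and 0.88 (exact permutation p = 0.00198). For the other 5 tested members r lay between 0.13 and 0.48, with adjusted permutation p of 0.233 to 0.679. Their rho lay between 0.08 and 0.56 (adjusted permutation p of 0.126 to 0.802). Without the same 2 arrays their r lay between 0.34 (miR-92a-3p) and 0.57 (miR-18a-5p).

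The arm difference was -0.22, 1.08 and -0.03 after 2 Gy, 0.25, -0.16 and 1.22 after 10 Gy, 1.17, 1.13 and 1.09 after 5x2 Gy, and 0.93, -0.87 and 0.94 in control. The 5x2 Gy arrays, the 3 brightest, were high together, and each of the other groups held both high and low arrays. With brightness as a covariate in limma, miR-17-3p after 5x2 Gy changed by 0.11 in place of -0.67.

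**Figure D3:**
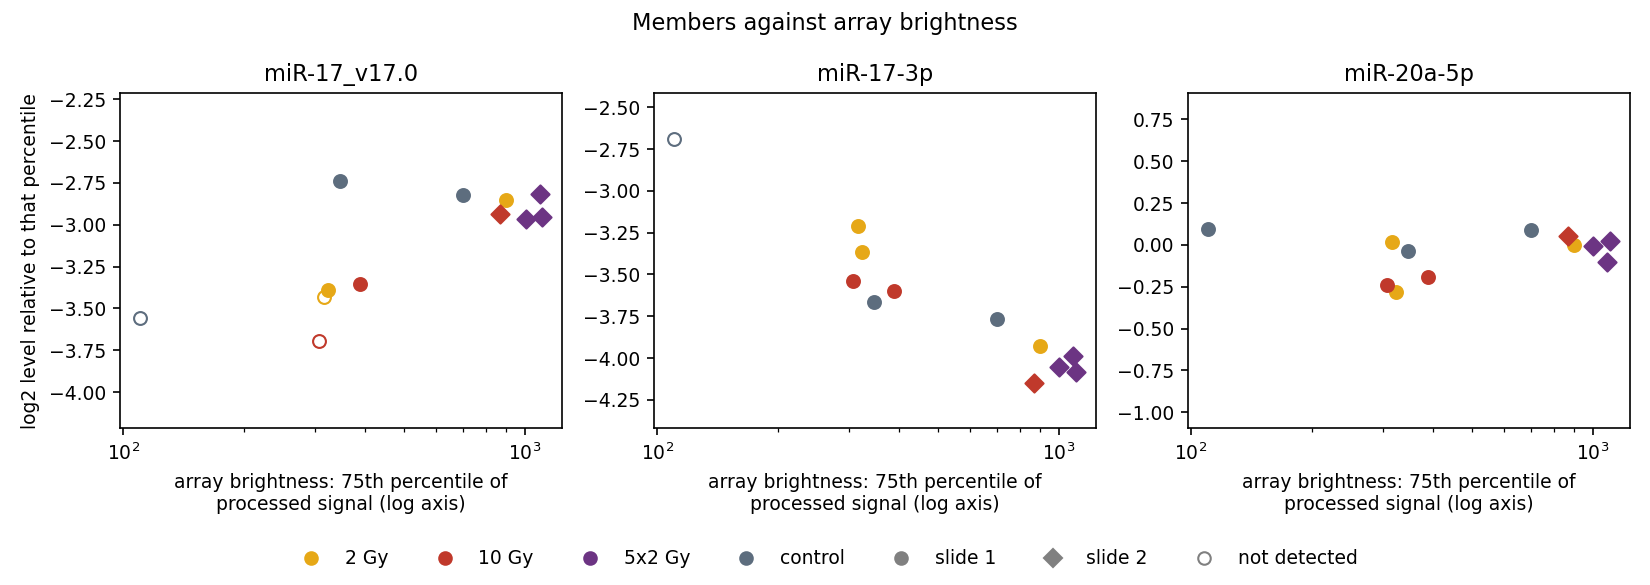
Log2 level of the 2 arms of miR-17 and of miR-20a-5p against array brightness on a log axis, 1 point per array. Colours give the group, diamonds slide 2, and open symbols arrays where the strand was not detected. MiR-17-3p goes down with brightness (r = -0.95), miR-17_v17.0 goes up (r = 0.75), and miR-20a-5p shows no clear trend (r = 0.16). Without the 2 arrays farthest from the median in brightness, r of miR-20a-5p was 0.54. Levels are divided by brightness, so the 2 axes are coupled by construction.

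Calls of members depended on whether brightness was in the fit. With it as a covariate, 5 of 7 members were lower after 10 Gy by limma: miR-18a-5p (-0.64, adjusted p = 0.0185), miR-17_v17.0 (-0.51, adjusted p = 0.0192), miR-19b-3p (-0.47, adjusted p = 0.0302), miR-92a-3p (-0.33, adjusted p = 0.0302) and miR-19a-3p (-0.50, adjusted p = 0.0480). In that fit 24 of 118 miRNAs were lower after 10 Gy (20.3%), and 44 were called in all (37.3%). MiR-92a-3p was then lower after 2 Gy too (-0.34, adjusted p = 0.0341), where 4.24% of the 118 were. After 5x2 Gy only miR-17_v17.0 passed (-0.51, adjusted p = 0.0401), where 7.63% were called lower, and there the 5x2 Gy arrays lay outside the brightness range of control. MiR-20a-5p passed in none of these (-0.17, -0.21 and -0.17), nor did miR-17-3p. Over the settings tried, the adjusted p for the change after 10 Gy ran from 0.0185 to 0.999 for miR-18a-5p, from 0.0192 to 1 for miR-17_v17.0, from 0.0302 to 0.965 for miR-19b-3p, from 0.0302 to 0.942 for miR-92a-3p and from 0.048 to 0.974 for miR-19a-3p.

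A second measure of array or RNA state gave other calls. It was the mean level of 6 GC-rich entries or entries traced to other RNA classes (miR-188-5p, miR-494-3p, miR-690, miR-1224-5p, miR-709 and miR-720_v18.0). Their summed signal was 2592 to 8807 after 2 Gy, 2157 to 6953 after 10 Gy, 8181 to 10242 after 5x2 Gy, and 1268 to 7714 in control, and 0 of 6 were called in any comparison with control. Their median change was -0.75 after 2 Gy, -0.88 after 10 Gy and -0.69 with 5x2 Gy. With their mean as a covariate, the 5 members called after 10 Gy in the brightness fit ranged from -0.25 to 0.16 and none passed. MiR-17-3p passed instead, with -0.90 after 10 Gy (limma adjusted p = 0.0281) and -0.998 after 5x2 Gy (limma adjusted p = 0.000753), and miR-17_v17.0 with 0.42 after 5x2 Gy (limma adjusted p = 0.0245). In either direction, that fit called 18 of 118 miRNAs after 10 Gy and 55 of 118 after 5x2 Gy. With slide as a block no member passed in any comparison, and the changes after 10 Gy were -0.63 to -0.20. The 5x2 Gy group lay on slide 2 alone and control on slide 1 alone, so for that comparison the slide block is carried by the single 10 Gy array on slide 2.

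Whether the strands of a single transcript moved apart was asked of the differences between members on the same array, in which the array scaling cancels. All 10 pairs of the 5 members detected on all arrays were tested over the 4 groups by an exact permutation F test over 15400 partitions of the arrays. None of the 10 pairs passed, also before adjustment (exact p of 0.226 to 0.714, all 0.714 after adjustment), where the smallest possible p was 6.49e-05. MiR-19b-3p minus miR-20a-5p had the smallest p, with 0.08, 0.34 and -0.01 after 2 Gy, 0.07, -0.01 and -0.03 after 10 Gy, 0.12, 0.16 and 0.15 after 5x2 Gy, and 0.36, 0.09 and 0.22 in control. All 3 values after 10 Gy lay below those of control. The largest shift against control was that of miR-18a-5p minus miR-20a-5p after 10 Gy, -0.31, with -2.15, -2.34 and -2.09 after 10 Gy against -1.57, -2.18 and -1.89 in control, which overlapped.

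MiR-19a-3p and miR-19b-3p, which differ by 1 base, moved most closely together. With so little between the sequences, part of their signal may be shared, which was not tested. Their difference had a pooled within-group SD of 0.09, and its group means stayed within 0.06 of control. Over the 12 arrays, each centred on its mean, the 2 strands differed by a root mean square of 0.08 (r = 0.97, as a description). The other pairs of the 7 tested members ran from 0.12 for miR-19b-3p with miR-20a-5p to 0.68 for the 2 arms of miR-17 (r = -0.73). MiR-17_v17.0 was most like miR-18a-5p (0.16, r = 0.86), its neighbour on the transcript. It was less like miR-20a-5p, with which it shares the seed (0.29, r = 0.43). MiR-17_v17.0 was detected on only 9 of the 12 arrays. Against array brightness, r was 0.75 for miR-17_v17.0, 0.48 for miR-18a-5p and 0.16 for miR-20a-5p.

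**Figure D4:**
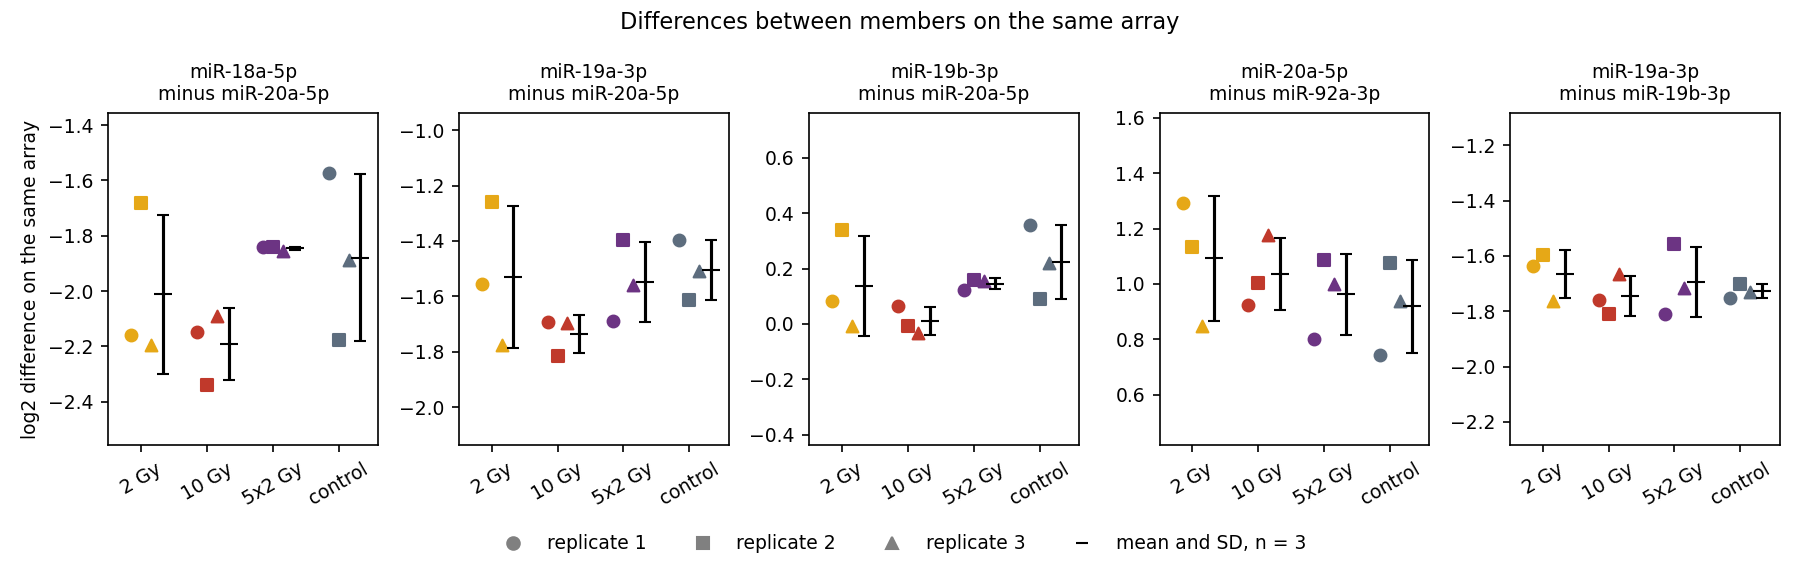
Log2 difference between 2 members on the same array for 5 of the 10 pairs tested, by group, with the mean and SD of 3 arrays. All panels span 1.2 log2 units. MiR-19a-3p minus miR-19b-3p stays within a narrow band in all groups, and miR-18a-5p minus miR-20a-5p is lowest on average after 10 Gy (-2.19, against -1.88 in control).

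The same seeds are also made at other loci, among them the Mir106b cluster on chromosome 5 and the Mir106a cluster on chromosome X. Those detected here are shown to set beside the members, again with the seed in capitals.
miR-106a_v17.0: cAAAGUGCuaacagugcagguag
miR-20b-5p: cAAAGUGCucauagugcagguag
miR-93-5p: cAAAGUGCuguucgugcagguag
miR-106b-5p: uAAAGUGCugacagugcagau
miR-25-3p: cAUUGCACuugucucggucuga
All 4 miR-17 seed strands of other loci were tested, and 1 of 5 with the miR-92 seed, miR-25-3p. The other 4 with the miR-92 seed (miR-32-5p, miR-92b-3p, miR-363-3p and miR-367-3p) and the 1 with the miR-18 seed, miR-18b-5p, were detected on 0 arrays. MiR-106a differs from miR-17 only at U10A and miR-20b-5p from miR-20a-5p at U1C and U10C, so part of their signal may be shared, which was not tested.

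None of the 4 miR-17 seed strands was called in any comparison. Their median change was -0.12 after 2 Gy, -0.21 after 10 Gy and 0.12 with 5x2 Gy. MiR-20b-5p was at -1.33, -1.15 and -1.53 after 2 Gy, at -1.45, -1.69 and -1.32 after 10 Gy, at -1.32, -1.22 and -1.18 after 5x2 Gy, and at -1.25, -1.13 and -1.16 in control. Its 10 Gy arrays lay below all control arrays (change -0.31, limma adjusted p = 0.203). MiR-106b-5p changed by -0.01, -0.03 and 0.26 after 2 Gy, 10 Gy and 5x2 Gy, and miR-93-5p by -0.14, -0.20 and 0.14. On the same array, miR-20a-5p minus miR-106b-5p was 1.39 to 1.52 after 2 Gy, 1.38 to 1.45 after 10 Gy, 1.19 to 1.26 after 5x2 Gy, and 1.43 to 1.70 in control, so that 5x2 Gy did not overlap with control. MiR-20a-5p minus miR-93-5p did not overlap either (1.75 to 1.78 after 5x2 Gy, 1.87 to 2.13 in control). MiR-20a-5p minus miR-20b-5p did overlap (1.17 to 1.24 after 5x2 Gy, 1.22 to 1.25 in control). These differences were not tested, and 5x2 Gy and control lay on different slides.

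MiR-25-3p, the miR-92 seed strand of the Mir106b cluster, rose after 5x2 Gy. It was at -2.09, -2.05 and -2.09 after 5x2 Gy, against -2.48, -2.57 and -2.38 in control (change 0.40, 95% interval 0.14 to 0.66, limma adjusted p = 0.0319), where 21.2% of the 118 were called and 0 of 118 with slide as a block. After 2 Gy it was at -2.67, -2.33 and -2.28 and after 10 Gy at -2.26, -2.46 and -2.38, with changes of 0.05 and 0.11 that did not pass. MiR-92a-3p minus miR-25-3p, whose sequences differ at U1C, C14U and C18U, was 1.15 to 1.40 after 2 Gy, 1.14 to 1.25 after 10 Gy, 0.98 to 1.19 after 5x2 Gy, and 1.53 to 1.70 in control. The difference was smaller on all 9 irradiated arrays than on the 3 control arrays. This pair was looked at after its levels were seen, so the values are a description and carry no test.

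**Figure D5:**
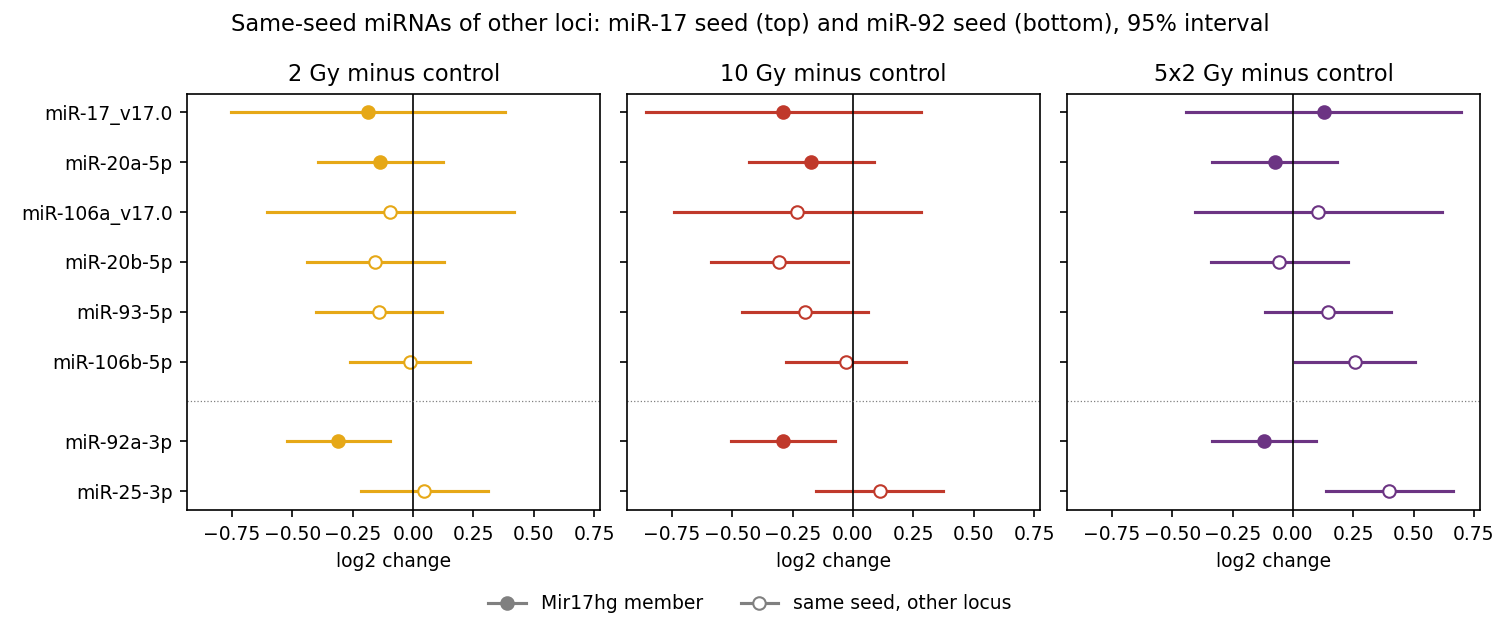
Change against control of the Mir17hg members with the miR-17 or miR-92 seed (filled) and of the tested strands with the same seed from other loci (open), with 95% intervals from limma. MiR-25-3p after 5x2 Gy (0.40) is the only one of these that passed, and miR-92a-3p lies below 0 in all 3 comparisons (-0.31, -0.29 and -0.12).

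Outside the cluster, the miRNAs most like its mean pattern were named, among 94 tested miRNAs above the floor on all arrays. Likeness was the root mean square difference of centred log2 levels over the 12 arrays. The mean pattern was taken over the 7 tested members. These include both arms of miR-17, which moved in opposite ways (r = -0.73). The closest was miR-20b-5p (0.07), followed by miR-93-5p (0.12), miR-101b-3p_v20.0 (0.13), miR-31-3p (0.13) and miR-15a-5p (0.15). MiR-20b-5p and miR-93-5p carry the miR-17 seed, and the other 3 do not. MiR-101b-3p_v20.0 was detected on 6 of the 12 arrays and miR-15a-5p on 11.

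Of the remaining arms of the Mir17hg hairpins, 2 of 4 looked for were on the array. These were miR-18a-3p and miR-19a-5p, which are not among the 8 members and were detected on 0 arrays. Of 8 opposite arms of the related clusters, 4 were on the array and 0 were tested, with miR-106b-3p detected on 1 array. Among the members themselves, the 3p arm was thus measured beside the 5p arm only for the Mir17 hairpin printed above. For the Mir20a hairpin the 5p arm was detected on all 12 arrays and the 3p arm on 1.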

How the data were processed

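MicroRNAs of LLC1 cells were measured on 12 Agilent 1-colour arrays, 3 in each of 4 groups, with 100 ng of RNA labelled with Cy3 per the labels' protocols. Deposited scanner files give a linear intensity for each spot. Per the submitters' processing notes, Agilent Feature Extraction 10.7.3.1 made them. The processed signal is background-subtracted, per the file headers. Deposited spot flags (control, outlier, well above background) are other values, 0 or 1 per the file headers. A series table from the authors gives log2 values, which equal the log2 of the processed signal plus 1 constant per array. No count of molecules exists, and the number of arrays limits the precision.

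Spots marked as controls or outliers were dropped (outliers made up 2.04 to 4.95% per array) and the rest averaged per probe. Arrays were scaled to their 75th percentile over the 78 probes that all of them detected. Values under 0.0180 of that percentile (the lowest detected signal, log2 -5.79) were raised to this floor before log2 was taken, and a miRNA's probes detected on at least 3 arrays were averaged. Limma 3.58.1 in R 4.3.3 was run on all 118 tested miRNAs and 12 arrays with no covariates (8 residual and 2.19 prior degrees of freedom), two-sided, with Benjamini-Hochberg adjustment at 0.05. Scripts for limma and for the permutation test, run with numpy 2.4.6, were tested on simulated data. Normexp was run on the median signal with an offset of 50, since the files hold no mean signal. Identical values were found in 0 pairs of arrays, and 0 columns belonged to other samples.

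The members, the lists and the tests were chosen with earlier results of these data known. All 8 members are named, whether they passed or not, and beside them the 5 miRNAs most like their mean pattern and the lists of same-seed strands and other arms. Sequences are from RefSeq, GRCm38.p6. The array's design names mm9, so coordinates are RefSeq's alone. The alternatives tried were other scalings, background corrections, floors, probe rules and filters, single arrays left out, fits on 2 groups, slide and replicate blocks, within-slide fits, and brightness or array state as a covariate.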

Additional observations from a re-analysis of the deposited data

How the results depend on the processing

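The 28 changes of the 7 tested members were refitted under up to 31 other settings each, and of 853 values 750 kept their sign and their side of the threshold, 91 turned and 12 passed with the same sign. Some of the values that turned also passed, with the opposite sign. Within-array differences gave 0 of 10 pairs in all settings run. Counts below are called miRNAs, in the order 2 Gy, 10 Gy, 5x2 Gy minus control, 5x2 Gy minus 10 Gy and the F test, where moved by over 1.5 times. Causes were not tested, other than the common shift that a scaling adds by construction and the smaller number of miRNAs under a stricter filter.

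Scaling over all probes called 105 after 5x2 Gy, 93 in 5x2 Gy minus 10 Gy and 90 by F. After 2 Gy it turned miR-17-3p (0.022), miR-19a-3p (0.014) and miR-20a-5p (0.038). After 10 Gy it turned miR-17_v17.0 (0.093), miR-17-3p (0.081), miR-18a-5p (0.0080), miR-19a-3p (0.092), miR-19b-3p (0.11), miR-20a-5p (0.32) and miR-92a-3p (0.20). After 5x2 Gy it turned miR-17-3p (0.95), miR-18a-5p (1.60), miR-19a-3p (1.52), miR-19b-3p (1.49), miR-20a-5p (1.56) and miR-92a-3p (1.52), and in 5x2 Gy minus 10 Gy miR-17-3p (0.87). In that fit all 7 tested members were called higher after 5x2 Gy (limma adjusted p of 0.00979 to 0.0436). Called higher in 5x2 Gy minus 10 Gy were miR-17-3p, miR-18a-5p and miR-92a-3p (limma adjusted p = 0.0277, 0.0493 and 0.0479). No scaling called 0 after 10 Gy, 93 after 5x2 Gy, 2 in 5x2 Gy minus 10 Gy and 5 by F. It turned miR-17_v17.0 (0.044), miR-17-3p (0.29), miR-18a-5p (0.31), miR-19a-3p (0.43), miR-19b-3p (0.37), miR-20a-5p (0.46) and miR-92a-3p (0.28) after 2 Gy. After 10 Gy these were miR-17-3p (0.14), miR-18a-5p (0.15), miR-19a-3p (0.25), miR-19b-3p (0.26), miR-20a-5p (0.47) and miR-92a-3p (0.36). After 5x2 Gy they were miR-17-3p (0.99), miR-18a-5p (1.77), miR-19a-3p (1.71), miR-19b-3p (1.67), miR-20a-5p (1.75) and miR-92a-3p (1.71), with miR-17-3p at 0.85 in 5x2 Gy minus 10 Gy. Of these, miR-17-3p, miR-20a-5p and miR-92a-3p passed after 5x2 Gy (limma adjusted p = 0.0304, 0.0415 and 0.0447).

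The authors' deposited log2 values called 0 after 10 Gy, 84 after 5x2 Gy, 0 in 5x2 Gy minus 10 Gy and 4 by F. They turned miR-17_v17.0 (0.25), miR-17-3p (0.27), miR-18a-5p (0.13), miR-19a-3p (0.23), miR-19b-3p (0.16), miR-20a-5p (0.26) and miR-92a-3p (0.074) after 2 Gy. After 10 Gy they gave miR-17_v17.0 (0.25), miR-17-3p (0.11), miR-18a-5p (0.010), miR-19a-3p (0.083), miR-19b-3p (0.088), miR-20a-5p (0.32) and miR-92a-3p (0.20). After 5x2 Gy they gave miR-17-3p (0.81), miR-18a-5p (1.41), miR-19a-3p (1.32), miR-19b-3p (1.29), miR-20a-5p (1.37) and miR-92a-3p (1.32), and miR-17-3p 0.70 in 5x2 Gy minus 10 Gy. Quantile normalization called 13 after 5x2 Gy and 1 in 5x2 Gy minus 10 Gy, and turned miR-17_v17.0 after 2 Gy (0.25) and 10 Gy (0.19), miR-17-3p after 2 Gy (0.086) and miR-20a-5p in 5x2 Gy minus 10 Gy (-0.017). Median scaling called 11 after 5x2 Gy, 1 in 5x2 Gy minus 10 Gy and 5 by F, and turned miR-17_v17.0 after 5x2 Gy (-0.087) and miR-20a-5p in 5x2 Gy minus 10 Gy (-0.031).

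Normexp called 5 after 5x2 Gy, 0 in 5x2 Gy minus 10 Gy and 2 by F. It turned miR-17_v17.0 after 5x2 Gy (-0.71) and, in 5x2 Gy minus 10 Gy, miR-17_v17.0 (-0.29), miR-19a-3p (-0.018) and miR-92a-3p (-0.0022). The total gene signal, chosen after seeing the data, called 6, 1 and 4 in these comparisons. It turned miR-17_v17.0 after 2 Gy (1.49) and 10 Gy (1.13), miR-17-3p after 2 Gy (0.23), miR-18a-5p after 5x2 Gy (0.057), and miR-20a-5p (-0.044) and miR-92a-3p (-0.026) in 5x2 Gy minus 10 Gy. A floor 4 times lower called 3 after 10 Gy, 1 in 5x2 Gy minus 10 Gy and 4 by F. A doubled floor called 2 and 4 in the last pair, and a floor 4 times higher, chosen after seeing the data, 2 and 5. Only miRNAs detected on all 12 arrays gave 8 after 5x2 Gy, 0 in 5x2 Gy minus 10 Gy and 2 by F, no filter gave 0 after 10 Gy and 16 after 5x2 Gy, and fits on the 2 groups compared gave 0 and 9.

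With brightness as a covariate the counts were 12 after 2 Gy and 44 after 10 Gy, and miR-17-3p turned after 2 Gy (0.12), 5x2 Gy (0.11) and in 5x2 Gy minus 10 Gy (0.22), and miR-17_v17.0 after 5x2 Gy (-0.51). With the array or RNA state mean they were 4, 18, 55, 12 and 47, and miR-17_v17.0 turned after 2 Gy (0.17) and 10 Gy (0.16) and miR-18a-5p after 5x2 Gy (0.15). Slide as a block called 0 after 10 Gy, 0 after 5x2 Gy, 1 in 5x2 Gy minus 10 Gy and 0 by F, and turned miR-17_v17.0 after 5x2 Gy (-0.46) and, in 5x2 Gy minus 10 Gy, miR-17-3p (0.11) and miR-20a-5p (-0.080), as did the fit within slide 2, with the same values and 0 calls. Within slide 1 there were 0 calls after 10 Gy.

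The replicate numbers did not pair the arrays: 4 of 18 pairs of arrays with the same number had deviations correlated over 0.1 (r from -0.77 to 0.70), as did 17 of 36 with different numbers, and 2 of 12 arrays correlated best with their own number. The replicate block called 0 after 10 Gy, 3 in 5x2 Gy minus 10 Gy and 5 by F, and no member. With 1 array left out, counts ran from 0 to 6 after 2 Gy, 0 to 8 after 10 Gy, 9 to 27 after 5x2 Gy, 2 to 6 in 5x2 Gy minus 10 Gy and 5 to 22 by F. The highest counts after 10 Gy and by F came without control replicate 2, the dimmest array, and the 6 after 2 Gy both without it and without control replicate 3. No member passed with any array left out, and 5 values turned: miR-17-3p after 2 Gy without 2 Gy replicate 2 (0.086) and without control replicate 2 (0.22), miR-19a-3p after 2 Gy without 2 Gy replicate 3 (0.059), and after 5x2 Gy miR-18a-5p without control replicate 1 (0.068) and miR-17_v17.0 without control replicate 2 (-0.13). With single arrays left out, these changes ran from -0.32 to 0.22, from -0.34 to 0.059, from -0.17 to 0.068 and from -0.13 to 0.28.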
